A study of Homo sapiens with 9 samples.

Results

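DNA replication genes are described here as a set of 43 human genes, chosen by gene symbol, that cover origin licensing, the replicative helicase, the polymerases, the sliding clamp and its loader, and the supply of deoxynucleotides. All 43 symbols were found among the 20379 genes of the expression table, and all 43 passed the filter on low counts. They were measured by RNA sequencing of polyA RNA from HCCLM3, an established human hepatocellular carcinoma cell line. The cells received an siRNA against UXS1, which encodes the enzyme that makes UDP-xylose, an siRNA against MRPL42, which encodes a protein of the large subunit of the mitochondrial ribosome, or a non-targeting control siRNA (siRNA-NC), with 3 libraries in each of the 3 groups. All 9 libraries come from 1 cell line and carry no other treatment that the labels name. The labels used here do not state the siRNA sequences, the dose or the time between transfection and harvest.

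Before S phase, the origin recognition complex, CDC6 and CDT1 load MCM2 to MCM7 onto DNA as an inactive ring. Kinases and loading factors then add CDC45 and the GINS complex to that ring, which turns it into the moving helicase. Primase and polymerase alpha start each strand, polymerases epsilon and delta extend it, and PCNA, its loader RFC, FEN1 and LIG1 complete the lagging strand. Many of these genes are textbook targets of E2F transcription factors, whose activity rises as cells leave G1, so their mRNAs are widely read as markers of proliferating cells, including those of liver cancer.

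Promoter sequence is shown for 6 of the genes because the members shared a shift in 1 library that is described further on. The table of RefSeq promoters (assembly GRCh38.p14, 250 bases before to 50 bases after each transcript start, or 300 in all) held 37 of the 43 genes with 47 promoters. Each window was searched on both strands for 4 spellings of the E2F motif, TTTCCCGC, TTTCGCGC, TTTGCCGC and TTTGGCGC, which can overlap one another, and for CCAAT, the box bound by NF-Y. An E2F spelling was present in 18 of the 47 promoters of the members (38.3%), against 3.31% of the 35116 promoters of the whole table. By gene, 18 of the 37 members (48.6%) had one, against 6.76% of the 10202 tested genes in the promoter table. CCAAT was present in 57.4% of the promoters of the members, against 34.6% of all promoters. These are matches of letters and not measurements of binding. Shown for their single or paired E2F spelling (in capitals, on either strand) are the 100 bases before the RefSeq start of GINS2 (chr16:85688955-85689054, minus strand), CDT1 (chr16:88803689-88803788, plus strand), TYMS (chr18:657553-657652, plus strand) and CDC7 (chr1:91501012-91501111, plus strand), each written 5′ to 3′ along its gene.
GINS2: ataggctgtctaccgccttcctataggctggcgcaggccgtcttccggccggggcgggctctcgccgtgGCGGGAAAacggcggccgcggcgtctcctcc
CDT1: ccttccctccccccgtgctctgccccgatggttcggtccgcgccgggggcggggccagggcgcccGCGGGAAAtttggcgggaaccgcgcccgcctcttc
TYMS: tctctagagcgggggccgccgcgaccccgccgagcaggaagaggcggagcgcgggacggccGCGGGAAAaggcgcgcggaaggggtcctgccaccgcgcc
CDC7: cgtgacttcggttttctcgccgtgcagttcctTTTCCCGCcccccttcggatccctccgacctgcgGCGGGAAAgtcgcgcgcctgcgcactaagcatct

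The nucleotide supply genes TK1 (chr17:78187053-78187152, minus strand) and RRM2 (chr2:10122639-10122738, plus strand) had no such E2F spelling in the window searched, and their paired CCAAT boxes, read on either strand, are in capitals. They are shown because TK1 had the lowest relative level of the 43 genes in control library c and RRM2 did not. Of the 6 windows, 5 lie inside the wider GENCODE 29 span of the gene, which includes longer transcripts, and that of TYMS lies partly inside it.
TK1: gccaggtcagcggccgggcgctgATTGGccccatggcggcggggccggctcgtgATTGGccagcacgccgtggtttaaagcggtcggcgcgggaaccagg
RRM2: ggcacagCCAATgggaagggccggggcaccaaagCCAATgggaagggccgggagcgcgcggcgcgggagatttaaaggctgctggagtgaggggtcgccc

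Library totals lay between 15265959 and 22400560 estimated counts. Control library c stood apart from the rest. Its log2 CPM correlated with those of the other 8 libraries at 0.956 to 0.967 across genes, while every other pair of libraries reached 0.985 or more. Fold changes against control siRNA are therefore given with all 9 libraries and again with control library c left out. The target mRNAs were measured first. UXS1 stood at 145, 138 and 141 CPM (the share of a library's counts, scaled to a fixed total) in UXS1 siRNA libraries a, b and c, against 144, 151 and 179.7 CPM in the controls, with a log2 fold change of -0.17 (edgeR adjusted p = 0.348). The highest of these is control library c, and the other controls did not stand clear of the UXS1 siRNA libraries. MRPL42 had 104, 93.0 and 81.8 CPM in MRPL42 siRNA libraries, against 100.4, 118 and 147 CPM in the controls, with a log2 fold change of -0.39 (edgeR adjusted p = 0.185). With controls a and b only, the values were -0.078 for UXS1 (edgeR adjusted p = 0.519) and -0.24 for MRPL42 (edgeR adjusted p = 0.252). Neither target passed the threshold against control siRNA, and the groups are named below by the siRNA and not by a knockdown. The keratins KRT8 (4520 to 6040 TPM) and KRT18 (1690 to 2060 TPM) marked all 9 libraries as epithelial, ALB was low (4.15 to 16.6 TPM) and GPC3, a marker of many liver cancers, was at 0 in all 9. TPM is here a count divided by transcript length and scaled to a fixed total per library. Of 8 markers of immune, endothelial and stromal cells, 6 stayed under 1 TPM in all 9 libraries. The exceptions were CD68 (79.9 to 136 TPM), which many cell types hold in lysosomes, and PECAM1 (5.38 to 10.6 TPM). In bulk samples of this kind, fewer cells in S phase and less of an mRNA per cell cannot be told apart.

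Levels were compared between genes in TPM, computed from the deposited counts and the median length of each gene's transcripts in GENCODE 29. The transcripts present in these cells may be longer or shorter than that, so differences in level between genes rest on this assumption. The length used for a gene cancels in its own ratio between groups, but ratios in TPM can still differ from those in CPM. ORC6, for example, averaged 82.0 CPM in UXS1 siRNA libraries and 77.0 CPM in controls a and b, but 94.2 and 95.9 TPM. The median member averaged 61.25 TPM over the 9 libraries, against 21.7 TPM for the median of the 12565 tested genes with a length. MCM7, a subunit of the helicase ring, was the highest at 516.5 TPM, with 373 TPM in its lowest and 574 TPM in its highest library. PCNA, the clamp that tethers polymerases to DNA, averaged 436 TPM (332 to 485 TPM), and TK1, the thymidine kinase of the salvage route, averaged 407 TPM (203 to 488 TPM). At the other end stood POLE2, a subunit of polymerase epsilon, with 15.5 TPM, ORC2, a subunit of the origin recognition complex, with 13.8 TPM, and POLA1, the catalytic subunit of polymerase alpha, with 9.525 TPM. The roles differed in level, with a median of 203 TPM for nucleotide supply, 89.0 TPM for origin licensing, 76.45 TPM for the clamp, clamp loader and strand joining group, 34.7 TPM for polymerases and primase and 31.85 TPM for helicase activation. Subunits of 1 complex were not equal. The ring holds its MCM subunits in equal number, yet their mRNAs averaged 516.5 TPM for MCM7, 257 TPM for MCM4, 141 TPM for MCM2, 106 TPM for MCM5, 89.0 TPM for MCM3 and 65.0 TPM for MCM6. In GINS, likewise an assembly of equal parts, GINS1 averaged 57.95 TPM and GINS4 22.0 TPM. In the order of mean levels, the range of each gene over the 9 libraries overlapped that of the next one, except where PRIM2, of primase, with 54.5 TPM (50.03 to 60.5 TPM), stood above POLA2, of polymerase alpha, with 44.0 TPM (35.9 to 47.8 TPM). Some of these overlaps came from control library c alone. Without it, TK1 (389 TPM or more) also stood clear of MCM4 (288 TPM or less). So did MCM7 of PCNA, POLD2 of RRM1 and MCM5 of ORC6.

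**Figure D1:**
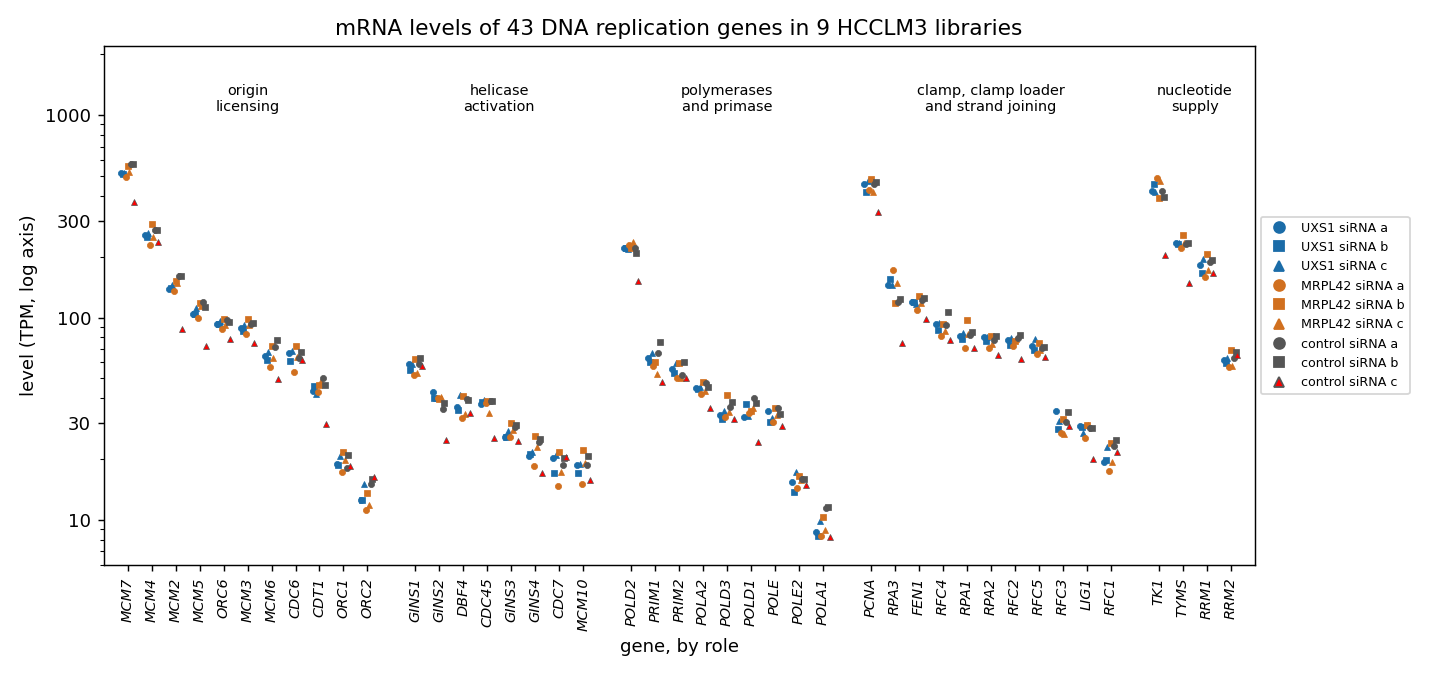
Level of each of the 43 genes in each of the 9 libraries (TPM on a log axis), by role and, within a role, by mean level. Each point is 1 library, UXS1 siRNA and MRPL42 siRNA libraries stand left of the controls, and the red triangles (control library c) lie under the other points for TK1, MCM2, CDT1 and RPA3 but not for ORC2 or CDC7.

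No member of the set passed an edgeR adjusted p of 0.05 in any comparison, with all 9 libraries or without control library c. For UXS1 siRNA against control siRNA with all 9 libraries, where 0.0158% of all genes passed, the median log2 fold change of the members was 0.11, against -0.0047 for all genes tested, and 38 of the 43 values were above 0. An unadjusted p below 0.05 was reached by 6 members (ORC6, GINS2, POLD2, RFC5, RPA2 and RPA3), all with higher values in UXS1 siRNA, against 17.8% of all genes, and 6 of 43 is not above that background. DESeq2 and limma-voom, run as alternatives, also called 0 of the 43, where DESeq2 called 460 and limma-voom 2 of 12657 genes. Leaving out control library c gave a median of 0.029, 28 values were above 0, 0 members passed where 1.58% of all genes did, and 4 members reached an unadjusted p below 0.05, against 19.2% of all genes. Of these 4, GINS2, RFC5 and RPA3 had higher values in UXS1 siRNA and POLA1 a lower one. The direction without control library c depended on the unit. In TPM, only GINS2, POLD2, RFC5, RPA3, TYMS and TK1 had a higher mean in UXS1 siRNA than in controls a and b. The other members had a lower one, such as MCM7 (516 against 573 TPM) and PCNA (447 against 462 TPM).

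MRPL42 siRNA against control siRNA uses the same 3 control libraries, so its values are not independent of the first comparison. With all 9 libraries its median was 0.13, against -0.011 for all genes tested, with 36 of 43 values above 0. No gene at all passed (0% of those tested), and 7 members reached an unadjusted p below 0.05, against 20.2% of all genes. The 7 are GINS2, POLD2, RFC5, RPA3, TYMS and TK1, with higher values in MRPL42 siRNA, and ORC2, with a lower one. DESeq2 and limma-voom called 0 of the 43 here as well, where DESeq2 called 677 and limma-voom 0 of 12657 genes. Without control library c the median was 0.054 and 31 values were above 0. In that fit 1.33% of all genes passed but 0 members did, and 8 members reached an unadjusted p below 0.05, against 19.6% of all genes. Those 8 are GINS2, POLD2, RPA3, TYMS and TK1, with higher values in MRPL42 siRNA, and ORC2, POLA1 and PRIM1, with lower ones. In TPM, only ORC1, GINS2, POLD2, RPA1, RPA3, TYMS and TK1 had a higher mean in MRPL42 siRNA than in controls a and b, and the other members a lower one. The labels do not tell separate cultures from repeat libraries of 1 culture, so all p-values measure the spread between libraries, which may be technical.

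Separation of the groups was also counted. In CPM, all 3 UXS1 siRNA libraries lay above all 3 controls for 13 members (30.2%), against 15.3% of all genes, and below them for 0 members, against 10.9%. Against controls a and b only, the same 13 lay above (background 22.2%) and 5 lay below (11.6%, background 18.5%), namely MCM2, MCM6, MCM7, GINS4 and POLA1. All 3 MRPL42 siRNA libraries lay above all 3 controls for 12 members (27.9%), against 11% of all genes, and below them for ORC2 only, against 10.5%. Against controls a and b only, 12 members lay above (background 16.4%) and 3 below (background 17.5%), namely ORC2, POLA1 and PRIM1. These separations, and those given by gene below, are in CPM, and not all held in TPM. In TPM the UXS1 siRNA libraries overlapped the controls for POLA2, ORC6, TYMS, POLD2 and RFC5. POLA2, for example, had 44.7, 44.45 and 45.5 TPM, against 47.3, 45.2 and 35.9 TPM. GINS2 stayed apart from the controls in both units.

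**Figure D2:**
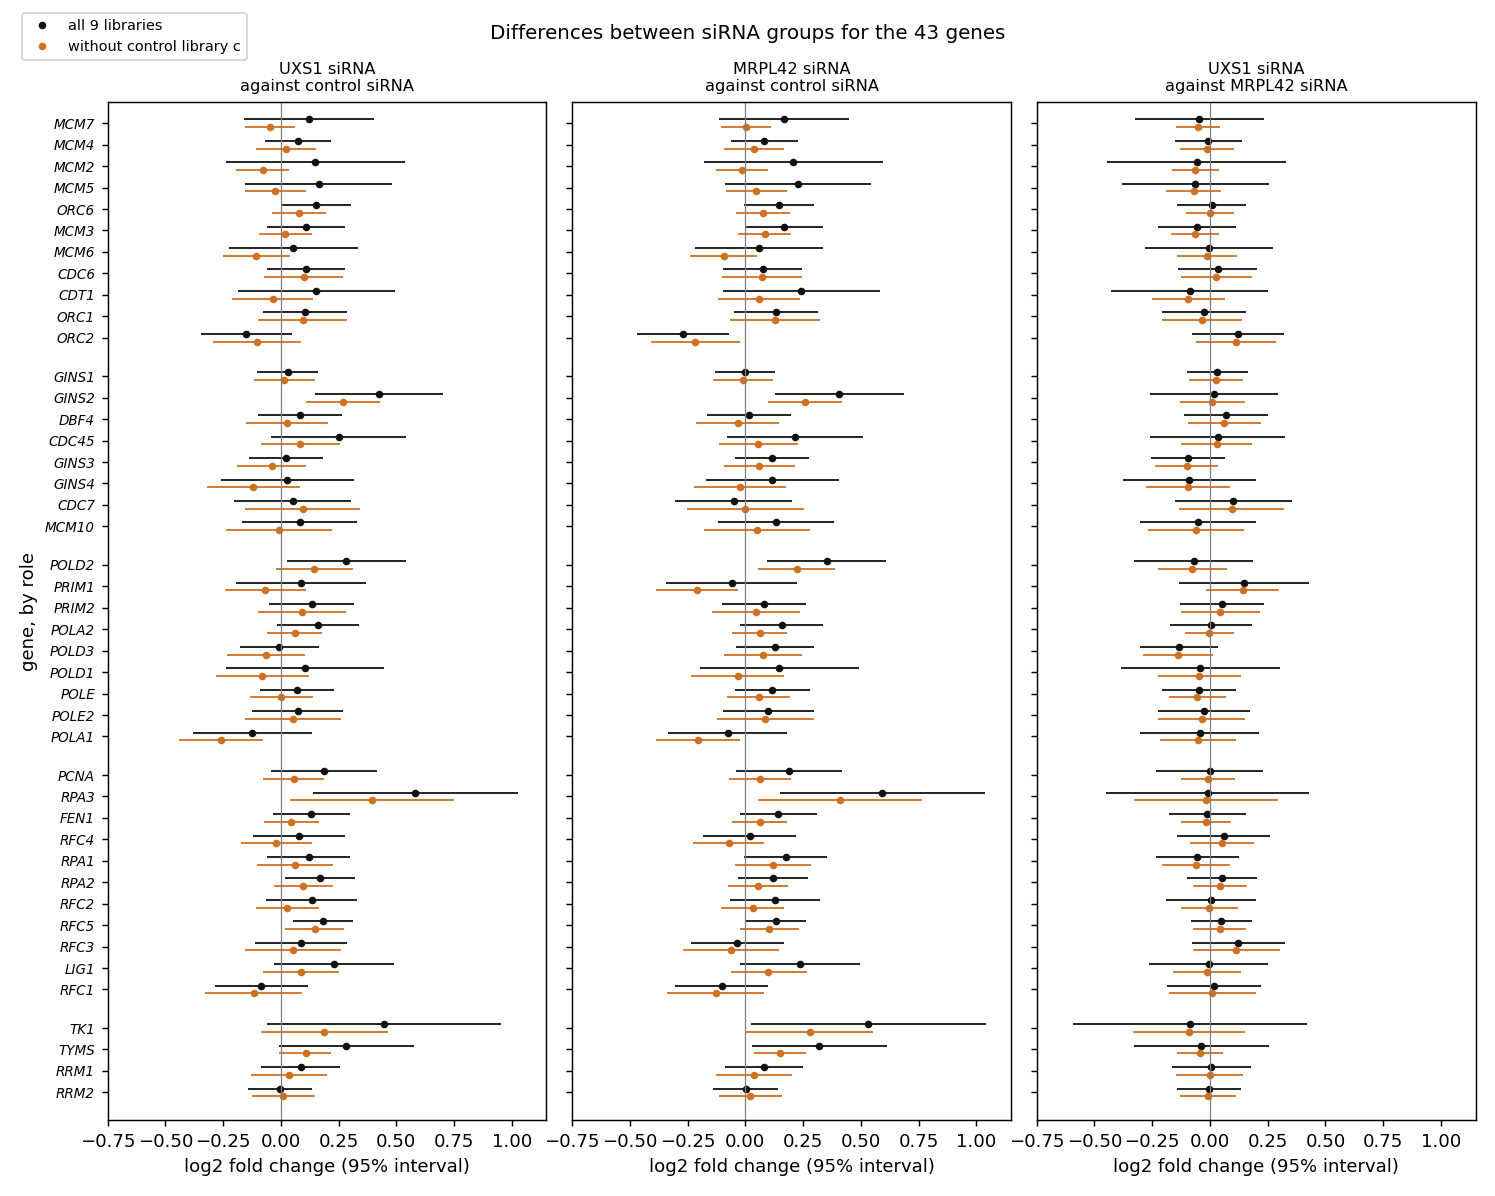
Log2 fold change of each gene in 3 comparisons (UXS1 siRNA against control siRNA, MRPL42 siRNA against control siRNA, UXS1 siRNA against MRPL42 siRNA), with edgeR 95% intervals. Black points use all 9 libraries and orange points leave out control library c, which moves most values of both comparisons with control siRNA toward 0 and narrows their intervals.

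Among the 11 genes of origin licensing the median log2 fold change was 0.11 for UXS1 siRNA and 0.15 for MRPL42 siRNA against control siRNA, with 10 of 11 values above 0 in each. Among licensing genes without control library c, the median was -0.023 for UXS1 siRNA, with 5 of 11 values above 0, and 0.0475 for MRPL42 siRNA, with 8 of 11. CDT1, which helps to load the ring and is destroyed once S phase begins, had 75.3, 81.4 and 70.8 CPM in UXS1 siRNA libraries a, b and c, 78.8, 76.2 and 86.8 CPM in MRPL42 siRNA libraries, and 80.3, 73.8 and 50.4 CPM in controls. Only control library c stood apart, and the other 8 libraries overlapped. Its log2 fold change was 0.15 for UXS1 siRNA (SE 0.15, edgeR adjusted p = 0.616) and 0.24 for MRPL42 siRNA (SE 0.15, edgeR adjusted p = 0.376), and these became -0.035 and 0.058 without control library c. MCM5, another subunit of the ring, had 166, 169 and 174 CPM in UXS1 siRNA libraries, 168, 176 and 187 CPM in MRPL42 siRNA libraries, and 175, 166 and 112 CPM in controls. Again control library c alone was low, and the UXS1 siRNA log2 fold change of 0.165 became -0.023 without it. MCM7 had 824, 829 and 802 CPM in UXS1 siRNA libraries, 839, 837 and 858 CPM in MRPL42 siRNA libraries, and 836, 840.0 and 579.5 CPM in controls. Across the 8 libraries other than control library c its highest level was 1.07 times its lowest, the narrowest range of the 43 genes.

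ORC2 went the other way. It had 28.9, 29.6 and 34.0 CPM in UXS1 siRNA libraries, 27.4, 29.7 and 28.0 CPM in MRPL42 siRNA libraries, and 31.9, 33.7 and 37.0 CPM in controls. All 3 MRPL42 siRNA libraries lay below all controls, while UXS1 siRNA library c overlapped them. For MRPL42 siRNA the log2 fold change was -0.27 (95% interval -0.47 to -0.072, edgeR adjusted p = 0.158), and -0.22 without control library c (edgeR adjusted p = 0.198). ORC1 and ORC6, subunits of the same complex, had positive log2 fold changes for MRPL42 siRNA with all 9 libraries, of 0.13 and 0.15, and of 0.13 and 0.077 without control library c. ORC6 had 80.5 to 83.0 CPM in the 6 UXS1 siRNA and MRPL42 siRNA libraries, against 77.9, 76.1 and 67.1 CPM in controls, so the groups did not overlap. The difference was 0.15 on the log2 scale in each comparison (edgeR adjusted p = 0.275 for UXS1 siRNA and 0.253 for MRPL42 siRNA), and 0.078 and 0.077 without control library c.

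Helicase activation, with 8 genes, had medians of 0.066 for UXS1 siRNA and 0.12 for MRPL42 siRNA, which became 0.022 and 0.0255 without control library c. It held the member with the smallest adjusted p in both comparisons. GINS2, a subunit of the GINS complex (chromosome 16, 85676198 to 85690073, minus strand, GRCh38), had 61.2, 58.7 and 56.3 CPM in UXS1 siRNA libraries, 60.9, 53.8 and 59.3 CPM in MRPL42 siRNA libraries, and 46.8, 49.9 and 34.6 CPM in controls. All 6 libraries of the targeting siRNAs lay above all 3 controls. The log2 fold change was 0.42 for UXS1 siRNA (SE 0.12, 95% interval 0.15 to 0.70, edgeR adjusted p = 0.178) and 0.41 for MRPL42 siRNA (SE 0.12, 95% interval 0.13 to 0.69, edgeR adjusted p = 0.145). With controls a and b only these values were 0.27 (95% interval 0.11 to 0.43, edgeR adjusted p = 0.103) and 0.26 (95% interval 0.097 to 0.42, edgeR adjusted p = 0.104). Its partners in the complex had smaller values. GINS1 had 98.1 to 102 CPM in UXS1 siRNA libraries, 95.1 to 102 CPM in MRPL42 siRNA libraries and 94.8 to 102 CPM in controls. Its log2 fold changes were 0.030 and -0.0029, and 0.016 and -0.0094 without control library c. GINS3 and GINS4 gave 0.023 and 0.028 for UXS1 siRNA and 0.12 each for MRPL42 siRNA. Leaving out control library c turned 3 of these 4 values negative, with -0.040 and -0.12 for UXS1 siRNA and 0.061 and -0.023 for MRPL42 siRNA. Whether GINS2 differs from them was not tested.

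CDC45, the other partner of the ring in the active helicase, had 40.3, 42.3 and 41.2 CPM in UXS1 siRNA libraries, 43.7, 39.6 and 37.6 CPM in MRPL42 siRNA libraries, and 38.4, 38.7 and 26.9 CPM in controls. The UXS1 siRNA libraries lay above the controls and the MRPL42 siRNA libraries overlapped them. Its log2 fold change of 0.25 for UXS1 siRNA became 0.084 without control library c, and that for MRPL42 siRNA was 0.22 and became 0.055. CDC7, the kinase subunit that triggers origin firing, had 35.0, 30.1 and 35.5 CPM in UXS1 siRNA libraries, 27.3, 35.6 and 30.8 CPM in MRPL42 siRNA libraries, and 29.8, 32.3 and 34.9 CPM in controls, and all 3 groups overlapped. The remaining members, DBF4, the activating subunit of CDC7, and MCM10, a firing factor, had log2 fold changes of 0.085 and 0.081 for UXS1 siRNA and 0.016 and 0.13 for MRPL42 siRNA. With control library c left out these were 0.028 and -0.0085 for UXS1 siRNA and -0.034 and 0.051 for MRPL42 siRNA.

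In the group of 9 polymerase and primase genes the median was 0.088 for UXS1 siRNA and 0.12 for MRPL42 siRNA, with 7 of 9 values above 0 in each. The medians were 0.0028 (5 of 9 above 0) and 0.057 (6 of 9) without control library c. POLD2, an accessory subunit of polymerase delta, had 194, 199 and 187 CPM in UXS1 siRNA libraries, 214, 182 and 212 CPM in MRPL42 siRNA libraries, and 178, 168 and 130.3 CPM in controls. Neither targeting group overlapped the controls. Its log2 fold change was 0.28 for UXS1 siRNA (edgeR adjusted p = 0.252) and 0.35 for MRPL42 siRNA (edgeR adjusted p = 0.158), and 0.145 and 0.22 without control library c. POLD1, the catalytic subunit of the same enzyme, gave 0.10 and 0.15, which became -0.080 and -0.034 without control library c. POLA2, the second subunit of polymerase alpha, had 89.2 to 90.9 CPM in UXS1 siRNA libraries, 89.0 to 90.5 CPM in MRPL42 siRNA libraries, and 87.4, 83.4 and 70.3 CPM in controls. The 6 libraries lay within 2 CPM of each other and above all controls, with a log2 fold change of 0.16 in each comparison (edgeR adjusted p = 0.325 and 0.292), and of 0.060 and 0.062 without control library c.

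Its partner POLA1 had 25.2, 24.9 and 28.2 CPM in UXS1 siRNA libraries, 25.8, 28.4 and 26.5 CPM in MRPL42 siRNA libraries, and 30.6, 31.1 and 23.4 CPM in controls. Control library c was the lowest of the 9 and the other controls were the highest, so the size of the difference rests on that library. With all 9 libraries the log2 fold change was -0.12 for UXS1 siRNA and -0.077 for MRPL42 siRNA. Leaving out control library c gave -0.26 for UXS1 siRNA (95% interval -0.44 to -0.079, edgeR adjusted p = 0.138) and -0.21 for MRPL42 siRNA (edgeR adjusted p = 0.195). PRIM1, the catalytic subunit of primase, had 46.9, 46.0 and 48.8 CPM in UXS1 siRNA libraries, 45.5, 42.3 and 40.1 CPM in MRPL42 siRNA libraries, and 46.0, 52.0 and 35.2 CPM in controls. Without control library c all MRPL42 siRNA libraries lay below both controls, with a log2 fold change of -0.21 (edgeR adjusted p = 0.181), where all 9 libraries gave -0.059. POLE2 had 12.7 to 15.1 CPM in UXS1 siRNA libraries, 13.8 to 14.5 CPM in MRPL42 siRNA libraries and 13.0 to 13.3 CPM in controls. Control library c lay close to the other controls here, and the MRPL42 siRNA libraries lay above all 3.

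The clamp, clamp loader and strand joining group of 11 genes had a median log2 fold change of 0.13 in both comparisons, with 10 of 11 values above 0 for UXS1 siRNA and 9 of 11 for MRPL42 siRNA. Without control library c it was 0.055 (9 of 11) and 0.062 (8 of 11). RPA3, the smallest subunit of the protein that coats single-stranded DNA (chromosome 7, 7636518 to 7718607, minus strand, GRCh38), had the highest log2 fold change of the 43 genes in each. It had 49.4, 54.5 and 48.8 CPM in UXS1 siRNA libraries, 63.0, 38.3 and 52.4 CPM in MRPL42 siRNA libraries, and 37.7, 39.1 and 25.2 CPM in controls. The UXS1 siRNA libraries lay above all controls, whereas MRPL42 siRNA library b fell among them. The log2 fold change was 0.58 for UXS1 siRNA (SE 0.20, 95% interval 0.14 to 1.03, edgeR adjusted p = 0.205) and 0.59 for MRPL42 siRNA (SE 0.20, 95% interval 0.15 to 1.04, edgeR adjusted p = 0.162). With controls a and b only these were 0.40 and 0.41. Leaving out MRPL42 siRNA library b instead gave 0.76 for MRPL42 siRNA with an edgeR adjusted p of 0.0416. This was the only call of a member under any of the alternatives run, in a fit where 810 of 12787 genes passed. RPA1 and RPA2, which form a trimer with RPA3, had log2 fold changes of 0.12 and 0.17 for UXS1 siRNA and 0.17 and 0.12 for MRPL42 siRNA, and of 0.060 and 0.098, and 0.12 and 0.054, without control library c.

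PCNA had 329, 307 and 333 CPM in UXS1 siRNA libraries, 328, 332 and 309.6 CPM in MRPL42 siRNA libraries, and 303, 312 and 235 CPM in controls. Its log2 fold change was 0.19 in both comparisons and became 0.055 and 0.063 without control library c. LIG1, the ligase that seals Okazaki fragments, had 50.9, 51.5 and 46.1 CPM in UXS1 siRNA libraries, 47.3, 48.8 and 53.1 CPM in MRPL42 siRNA libraries, and 46.3, 46.1 and 34.3 CPM in controls. The MRPL42 siRNA libraries lay above all controls and UXS1 siRNA library c overlapped them, and the log2 fold changes were 0.23 and 0.24 (edgeR adjusted p = 0.331 and 0.278), and 0.088 and 0.10 without control library c. RFC5, a subunit of the clamp loader, was separated in both comparisons, with 77.7 to 84.5 CPM in UXS1 siRNA libraries and 77.2 to 78.1 CPM in MRPL42 siRNA libraries, against 68.7 to 72.5 CPM in controls. Its log2 fold change was 0.18 for UXS1 siRNA (edgeR adjusted p = 0.191) and 0.13 for MRPL42 siRNA (edgeR adjusted p = 0.243), and 0.15 and 0.10 without control library c. The other loader subunits lay between -0.084 (RFC1) and 0.13 (RFC2) for UXS1 siRNA and between -0.10 and 0.13, for the same 2 genes, for MRPL42 siRNA. With control library c left out, RFC1 had -0.12 and -0.13, and RFC2 had 0.029 and 0.032.

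Nucleotide supply, with 4 genes, had medians of 0.18 for UXS1 siRNA and 0.20 for MRPL42 siRNA, which became 0.071 and 0.093 without control library c. TK1 (chromosome 17, 78174075 to 78187233, minus strand, GRCh38) had 260.4, 288 and 251 CPM in UXS1 siRNA libraries, 321, 228 and 299 CPM in MRPL42 siRNA libraries, and 239, 225 and 123 CPM in controls. The UXS1 siRNA libraries lay above all controls and MRPL42 siRNA library b lay between controls a and b. The log2 fold change was 0.45 for UXS1 siRNA (SE 0.22, edgeR adjusted p = 0.333) and 0.53 for MRPL42 siRNA (SE 0.23, edgeR adjusted p = 0.232), and 0.19 and 0.28 without control library c. TYMS, which makes thymidylate (chromosome 18, 657604 to 673578, plus strand, GRCh38), had 166, 168 and 162 CPM in UXS1 siRNA libraries, 166, 172.5 and 169.6 CPM in MRPL42 siRNA libraries, and 152, 152 and 103 CPM in controls. Neither targeting group overlapped the controls. The log2 fold changes were 0.28 and 0.32 with all 9 libraries. Without control library c they were 0.11 (edgeR adjusted p = 0.284) and 0.15 (edgeR adjusted p = 0.14). Ribonucleotide reductase makes deoxynucleotides from ribonucleotides, and its values lay closer to 0. RRM2, its S phase subunit, had 112 to 114 CPM in UXS1 siRNA libraries, 109 to 119.6 CPM in MRPL42 siRNA libraries and 107 to 117 CPM in controls. Its log2 fold changes were -0.0026 and 0.0011, and 0.011 and 0.0215 without control library c. For RRM1, its other subunit, the values were 0.086 and 0.080, and 0.035 and 0.037 without control library c.

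UXS1 siRNA was compared directly with MRPL42 siRNA, which leaves the controls out of the difference. No member passed (0% of all genes did, with or without control library c in the fit), and 0 members reached an unadjusted p below 0.05, against 1.72% of all genes over all 9 libraries and 5.35% when control library c was left out. DESeq2 and limma-voom called 0 members too, and 0 of all 12657 genes. The median log2 fold change was -0.0065, against -0.0038 for all genes tested, with 18 of 43 values above 0. All UXS1 siRNA libraries lay above all MRPL42 siRNA libraries for PRIM1, RFC4 and RPA2 (6.98%, against 5.79% of all genes) and below them for MCM2, MCM7, GINS3 and POLD3 (9.30%, against 4.31%). PRIM1 gave the highest value, 0.15 (95% interval -0.14 to 0.43), from the libraries listed above. POLD3, an accessory subunit of polymerase delta, gave the lowest, -0.13 (95% interval -0.30 to 0.037), with 37.4, 36.4 and 38.4 CPM in UXS1 siRNA libraries and 39.1, 44.3 and 39.7 CPM in MRPL42 siRNA libraries. RFC3, of the clamp loader, had 35.8, 29.6 and 31.1 CPM in UXS1 siRNA libraries and 29.7, 30.7 and 28.2 CPM in MRPL42 siRNA libraries, a log2 difference of 0.12 within overlapping groups. GINS3 had 26.6, 27.2 and 27.9 CPM in UXS1 siRNA libraries, against 28.2, 29.4 and 29.6 CPM in MRPL42 siRNA libraries, a separation of under 1 CPM with a log2 fold change of -0.094. RFC4 was separated in the opposite direction, with 68.7, 65.4 and 67.8 CPM in UXS1 siRNA libraries and 63.8, 64.7 and 65.2 CPM in MRPL42 siRNA libraries, at 0.060. The other named differences were 0.12 for ORC2, 0.10 for CDC7, -0.088 for CDT1, -0.037 for TYMS and -0.085 for TK1.

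The precision of the fit sets what could be seen. With all 9 libraries the 95% interval of the median member reached 0.20 to either side of its estimate on the log2 scale in each of the 3 comparisons. Intervals lay wholly within a 1.5-fold change in either direction for 40 of 43 members with UXS1 siRNA against control siRNA, the exceptions being GINS2, RPA3 and TK1. For MRPL42 siRNA against control siRNA the count was 37, the exceptions being MCM2, GINS2, POLD2, RPA3, TYMS and TK1. Between UXS1 siRNA and MRPL42 siRNA it was 42, with TK1 outside. Without control library c all but RPA3 lay within 1.5-fold in both comparisons with control siRNA, and 43 of 43 did between the targeting siRNAs. These intervals are for 1 gene at a time and are not adjusted, so they do not mark the smallest change that could pass the adjusted threshold. Large estimates could still miss that threshold, as RPA3 did at 0.58 for UXS1 siRNA against control siRNA (edgeR adjusted p = 0.205). A missed threshold does not show that levels were equal.

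The pattern shared by most members was the level in control library c. That library had the lowest CPM of all 9 for 33 of the 43 genes (76.7%), against 31.8% of all genes tested, and the highest for ORC2 alone (2.33%), against 31.6%. The median log2 ratio of control library c over the mean of controls a and b was -0.24 for the members and -0.0054 for all genes tested. The members' mean log2 CPM, relative to each gene's mean over the 9 libraries, was 0.043, 0.032 and 0.059 in UXS1 siRNA libraries, 0.021, 0.064 and 0.058 in MRPL42 siRNA libraries, and -0.021, 0.023 and -0.28 in controls. The 8 other libraries ran from -0.021 to 0.064 on this scale and only control library c stood away.

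TK1 had the lowest ratio, with 123 CPM in control library c against a mean of 232 CPM in controls a and b (0.529 times). It was followed by MCM2, a subunit of the ring (167 CPM against 286 CPM, 0.583 times), CDT1 (0.654 times), RPA3 (0.656 times), MCM5 (0.660 times), POLD1 (0.661 times), TYMS (0.679 times) and MCM7 (0.691 times). The ring was uneven, since MCM6 stood at 0.710, MCM3 at 0.844 and MCM4 at 0.922 times. So was ribonucleotide reductase, with RRM1 at 0.924 and RRM2 at 1.06 times. GINS1 and ORC1 stood at 1.0 times and CDC6 at 1.01 times the other controls, while CDC7 stood at 1.12 and ORC2 at 1.13 times. By role, control library c was the lowest for 8 of 11 licensing genes, 6 of 8 helicase activation genes, 7 of 9 polymerase and primase genes, 9 of 11 clamp and strand joining genes and 3 of 4 nucleotide supply genes. The 18 genes with an E2F spelling in the promoter window had a median log2 ratio of -0.34, the 19 without one -0.20, and the 6 with no entry in the promoter table -0.32. Each range contained genes on both sides of 0 except that of the 6 (-0.61 to -0.12), and no test was run on this split.

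**Figure D3:**
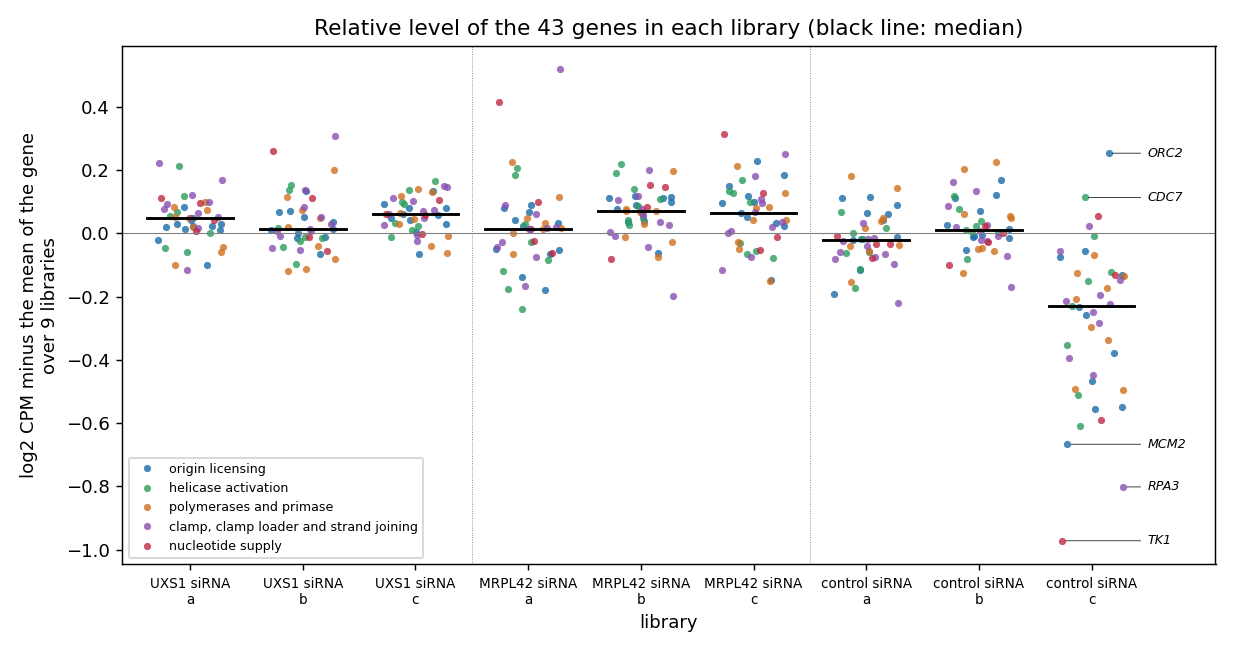
Log2 CPM of each gene minus its own mean over the 9 libraries, by library, with UXS1 siRNA and MRPL42 siRNA libraries left of the controls. Each point is a gene, colours give the role and black lines the library median, which is -0.23 in control library c and between -0.020 and 0.071 in the other 8.

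Other measures moved in control library c as well. Of 22 mitosis and spindle genes, 17 had their lowest level there (77.3%), with a median log2 ratio of -0.37, and 7 of 8 genes of chromatin assembly behind the fork did (87.5%, -0.32). Among 17 genes of G1 to S control only 6 were lowest there and 7 were highest, with a median of 0.074. Of 15 further subunits and licensing regulators 5 were lowest there (33.3%, close to the 31.8% of all genes), of 15 fork protection and accessory factors 6 were, and of 10 other nucleotide enzymes 7 were. Of 9 hepatocyte and liver cancer markers that passed the filter, 6 were lowest there and 2 were highest, with a median of -0.56. Examples chosen after their values were seen are given in TPM. FGB, a fibrinogen chain, had 1.94 TPM in control library c and 36.0 to 48.3 TPM in the other 8 libraries, ALB, albumin, had 4.15 TPM against 13.5 to 16.6 TPM, and HNF4A, a liver transcription factor, had 132 TPM against 57.8 to 72.9 TPM. The summed level of the 8 markers of other cell types was 108 to 114 TPM in UXS1 siRNA libraries, 112.5 to 122 TPM in MRPL42 siRNA libraries, and 90.6, 91.7 and 142 TPM in controls a, b and c. CD68 made up most of it, at 136 TPM in control library c. The part of these differences in the replication gene values was not tested.

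Transcript length went with some of the values. The length used is the median over each gene's transcripts in GENCODE 29, and the transcripts present in these cells may be longer or shorter. By that length RPA3 stood at 0.248 times the median gene, the shortest of the set, and TK1 at 0.448 times. Across the 10 members with the shortest transcripts the median log2 fold change for UXS1 siRNA against control siRNA was 0.16, and 0.066 after a correction for length in each library. For the 10 longest it was 0.075, and 0.15 after the correction. For MRPL42 siRNA the shortest 10 had 0.14 and, corrected, 0.065, and the longest 10 had 0.088 and, corrected, 0.17. RPA3 moved most, to 0.18 for UXS1 siRNA and 0.15 for MRPL42 siRNA. PRIM2, the second subunit of primase, was next in shortness by that annotated length, at 0.352 times the median gene, and changed sign. It had -0.13 corrected and 0.13 uncorrected for UXS1 siRNA, and -0.17 corrected and 0.081 uncorrected for MRPL42 siRNA. That change of sign rests on the annotated length. TK1 moved to 0.29 and 0.365. GINS2, whose length is 1.04 times the median, stayed at 0.445 and 0.44. With both the correction and control library c left out, GINS2 stood at 0.30 (edgeR adjusted p = 0.0653) and 0.29 (edgeR adjusted p = 0.0783). In the same fit RPA3 stood at 0.037 and 0.014, TK1 at 0.063 and 0.14, and TYMS at 0.020 and 0.057. PRIM1 stood at -0.14 for UXS1 siRNA and -0.29 for MRPL42 siRNA (edgeR adjusted p = 0.396 and 0.0953), the latter the lowest of the 43 genes. RFC4, a clamp loader subunit, also changed sign. It had 0.078 for UXS1 siRNA and 0.019 for MRPL42 siRNA, and -0.035 and -0.094 corrected. RPA2 went from 0.17 to 0.025 for UXS1 siRNA and from 0.12 to -0.022 for MRPL42 siRNA with all 9 libraries. ORC6 went from 0.15 to 0.081 for UXS1 siRNA. Of the members with an unadjusted edgeR p below 0.05 for UXS1 siRNA against control siRNA, GINS2 and RFC5 kept one after the correction. ORC6, POLD2, RPA2 and RPA3 did not, while POLA2 and RPA1 gained one.

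**Figure D4:**
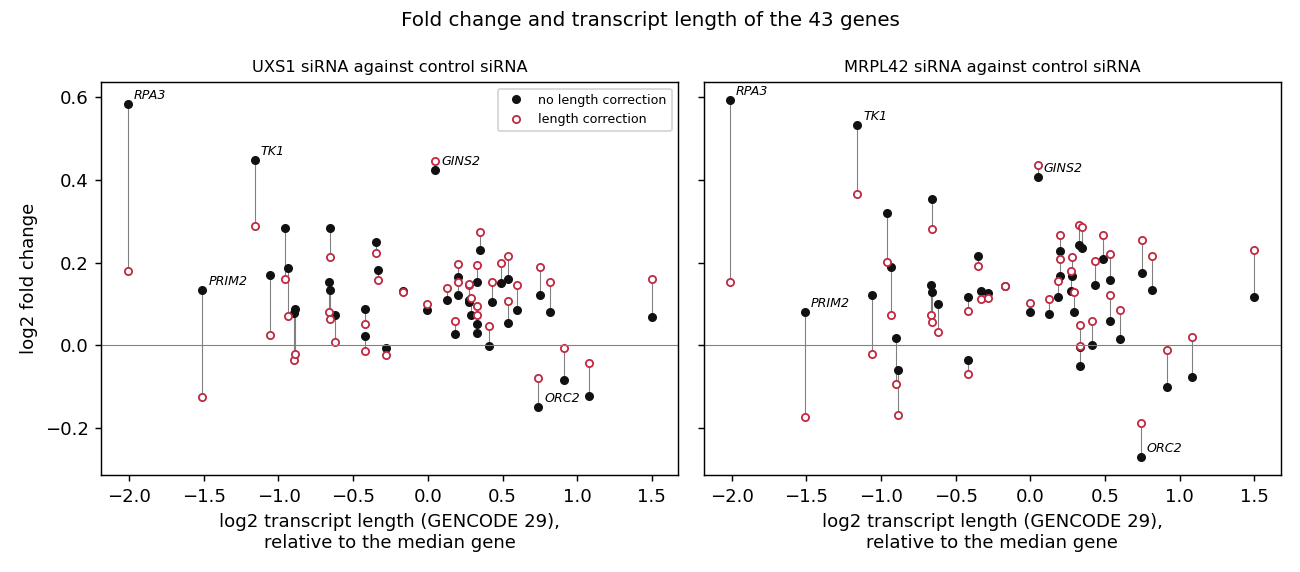
Log2 fold change of each gene against the log2 transcript length in GENCODE 29 (0 is the median gene), for UXS1 siRNA (left) and MRPL42 siRNA (right) against control siRNA, all 9 libraries. Filled points have no length correction and open points have one, and the lines join the values of a gene, which are far apart for RPA3, PRIM2 and TK1 and close for GINS2.

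Genes of neighbouring processes gave the same absence of calls. None of 87 genes in 6 further lists (other subunits and licensing control, fork protection and accessory factors, chromatin assembly behind the fork, other nucleotide enzymes, G1 to S control, mitosis and spindle) passed an edgeR adjusted p of 0.05 in any comparison, with all 9 libraries or without control library c. Few genes passed at all, with 0.0158%, 0% and 0% of all genes in the 3 comparisons with all 9 libraries. Without control library c the shares were 1.58%, 1.33% and 0%, so the absence of calls does not set these lists apart. For UXS1 siRNA against control siRNA the medians were 0.016, 0.044, 0.044, 0.16, 0.019 and 0.11, in that order of lists. With control library c left out they were -0.023, 0.0705, -0.027, 0.045, -0.0037 and -0.018, so that 4 of the 6 changed sign, and the mitosis and spindle genes above 0 numbered 10 of 22, against 19 of 22 with all 9 libraries. An unadjusted p below 0.05 was reached with all 9 libraries by 3 of 15, 4 of 15, 1 of 8, 3 of 10, 3 of 17 and 4 of 22 genes, against 17.8% of all genes. The smallest p in each list belonged to DONSON, a replisome factor (0.19, edgeR adjusted p = 0.190), PCLAF, which binds PCNA (0.31, edgeR adjusted p = 0.203), ASF1B, a histone chaperone (0.30, edgeR adjusted p = 0.241), NME1, a nucleoside diphosphate kinase (0.35, edgeR adjusted p = 0.174), E2F3, an E2F transcription factor (-0.25, edgeR adjusted p = 0.184), and MAD2L1, of the spindle checkpoint (0.27, edgeR adjusted p = 0.174). With controls a and b only, the values were 0.18 for DONSON, 0.20 for PCLAF, 0.146 for ASF1B, 0.28 for NME1, -0.20 for E2F3 and 0.25 for MAD2L1.

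For MRPL42 siRNA against control siRNA the 6 medians were 0.0061, 0.019, 0.076, 0.17, -0.051 and 0.125, and 2 of 15, 3 of 15, 2 of 8, 4 of 10, 3 of 17 and 3 of 22 genes reached an unadjusted p below 0.05, against 20.2% of all genes. Without control library c the medians were -0.034, 0.014, -0.021, 0.068, 0.0035 and 0.025, and 3 of the 6 changed sign. With all 9 libraries the smallest p belonged to POLE4, a small subunit of polymerase epsilon (0.57, edgeR adjusted p = 0.154), RNASEH2A, of ribonuclease H2 (0.52, edgeR adjusted p = 0.145), ASF1A (-0.23, edgeR adjusted p = 0.184), NME1 (0.41, edgeR adjusted p = 0.135), E2F3 (-0.21, edgeR adjusted p = 0.183) and PTTG1, securin (0.49, edgeR adjusted p = 0.153). With controls a and b only, the values were 0.64 for POLE4, 0.395 for RNASEH2A, -0.16 for ASF1A, 0.34 for NME1, -0.16 for E2F3 and 0.32 for PTTG1. Between UXS1 siRNA and MRPL42 siRNA the medians lay between -0.038 and 0.039, and the smallest p in each list belonged to DONSON (0.13), TIPIN (0.215), ASF1A (0.23), RRM2B (0.15), CCNE2 (0.25) and MAD2L1 (0.15), each with an edgeR adjusted p of 1.0. Among the marker lists, the smallest p against control siRNA with all 9 libraries belonged to AFP in the hepatocyte list (0.39 for UXS1 siRNA, 0.44 for MRPL42 siRNA, and 0.32 and 0.38 without control library c). CD68 was the one gene of these lists that was called without control library c and with no length correction. Its log2 fold change was 0.44 for UXS1 siRNA (edgeR adjusted p = 0.00727) and 0.54 for MRPL42 siRNA (edgeR adjusted p = 0.00368). Control library c, left out of that fit, had the highest CD68 level of the 9 libraries, at 136 TPM. With all 9 libraries the CD68 values were 0.11 for UXS1 siRNA and 0.205 for MRPL42 siRNA (edgeR adjusted p = 0.56 for the latter). With the length correction and control library c left out, MAD2L1 was called as well for UXS1 siRNA against control siRNA (0.32, edgeR adjusted p = 0.0456). In that fit 260 of 12747 genes passed.

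Some values carry reads that may not belong to the gene alone. Exons of 13 members overlap those of another protein-coding gene in GENCODE 29, among them RPA3 with UMAD1, GINS2 with GSE1, TYMS with ENOSF1, MCM7 with AP4M1 and RFC4 with EIF4A2 on opposite strands, and PRIM1 with NACA on the same strand. Whether the libraries keep strand is not stated in the labels used here, so such reads cannot be assigned with certainty. TYMS, TK1 and POLA2 had fractional counts in all 9 libraries.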

How the data were processed

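The deposited table holds, for 20379 genes and 9 libraries, estimated counts made by the authors; fastp, Bowtie2, HISAT2, edgeR and hg38 are named per the submitters' processing notes, while those notes name no counting program, annotation or strand setting. The table's columns carry letters a, b and c that the labels do not tie to repeat numbers, so libraries were assigned to groups only and 1 measure, the counts, was kept; 9 further per-library columns were not used. Since the design had assumed whole counts, the estimated counts were rounded. Genes passing edgeR's filterByExpr (12657) were scaled by TMM and tested with edgeR 4.0.16 quasi-likelihood in R 4.3.3 over all 9 libraries, with Benjamini-Hochberg adjustment at 0.05. CPM and log2 fold changes are computed from the authors' counts, and TPM was computed from them with the median exon length of each gene's transcripts in the GENCODE 29 basic set (20104 genes). The alternatives were DESeq2 1.42.0, limma 3.58.1 voom, RLE scaling, no filter, 2 groups only, a block by letter, a length correction (lowess span 0.3) and each library left out. The fits were tested on simulated data.

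The members and the gene lists were chosen with earlier results of these data known. Values per library are given for the 2 members with the largest absolute change in each role and comparison and the 3 highest and 3 lowest by TPM. ORC6, POLE2, RFC5, RRM2, GINS1, and other members named beyond these were added after their values were seen. From the other lists, the gene with the smallest p is named. Coordinates are from GENCODE 29. No 2 libraries agreed within sampling noise (lowest chi-square per gene 3.37).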

Additional observations from a re-analysis of the deposited data

How the results depend on the processing

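limma on log2(TPM + 1) and log2(TPM + 0.1) was planned but not run, since the counts alone were used. With the length correction and control library c left out, the median log2 fold change of the 43 genes was 0.0446 for MRPL42 siRNA against control siRNA, against 0.129 without either step. Leaving out 1 library at a time gave medians of 0.0294 (without control library c) to 0.174 (without control library b) for UXS1 siRNA against control siRNA, 0.0543 to 0.173 (the same libraries) for MRPL42 siRNA against control siRNA, and -0.0372 to 0.00195 for UXS1 siRNA against MRPL42 siRNA. The number of members called was 0 in each of these except 1 (RPA3, 0.763) without MRPL42 siRNA library b, where 810 of 12787 genes passed. CDT1 ranged from -0.0353 to 0.289 and MCM5 from -0.0226 to 0.283 for UXS1 siRNA against control siRNA, and TK1 from -0.219 to 0.0101 for UXS1 siRNA against MRPL42 siRNA. The cause was not tested. Over all genes edgeR called 2 and DESeq2 460 for UXS1 siRNA against control siRNA, and edgeR 0 and DESeq2 677 for MRPL42 siRNA. The letters did not pair the libraries (same-letter correlations of -0.271 to 0.126), and the fit with a replicate block by letter called 0 members, with medians of 0.112, 0.131 and -0.00293.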
